A study of Homo sapiens with 16 samples.

Results

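The genes described here are 36 genes of glucose handling, listed by symbol: the facilitative glucose and monocarboxylate transporters, the enzymes of glycolysis with their regulatory kinases, the pyruvate dehydrogenase kinases, the glycogen enzymes, and the glucose-responsive arrestins TXNIP and ARRDC4. They are 36 of the 59385 symbols in the count table, and 35 of them passed the filter on low counts in both experiments. The measurements are RNA-Seq counts from 16 libraries of human cardiomyocytes made from induced pluripotent stem cells (hiPSC-CMs), 4 in each of 4 groups, in a study of LINC00881, a long noncoding RNA. All cells came from the line WTC-11, so a single genetic background. They were kept in RPMI 1640 with B27, used at day 15 to 35 of differentiation, and moved to reduced-serum Opti-MEM for transfection with lipofectamine. They received either a plasmid expressing LINC00881 or a control plasmid carrying bacterial alkaline phosphatase (overexpression), or an antisense LNA GapmeR against LINC00881 or a scrambled oligonucleotide (knockdown), and were collected 48 to 72 hours later. Each treated group was compared with its own control, and the knockdown also within replicates 1 and 2 and within replicates 3 and 4 of both groups, which form separate sets of libraries. What a replicate number stands for is not given in the sources used here, and the p-values measure the spread between these libraries.

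Glycolysis splits glucose into pyruvate in the cytosol. Hexokinase traps glucose as its phosphate, and phosphofructokinase commits it to the pathway. Pyruvate then either leaves as lactate or is oxidized in mitochondria through pyruvate dehydrogenase, which the pyruvate dehydrogenase kinases (PDKs) switch off. Cardiomyocytes derived from stem cells and fetal cardiomyocytes lean on glycolysis, whereas the adult heart burns mostly fatty acids. TXNIP and ARRDC4 are arrestin-domain proteins that are induced when glucose phosphates accumulate and that limit glucose uptake.

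Total counts ran from 9833533 to 16415025 in the overexpression libraries and from 26979162 to 37332620 in the knockdown libraries. LINC00881 stood at 407 to 477 CPM (counts scaled to library size by TMM) with its plasmid against 87.6 to 143 with the control plasmid, and at 11.3 to 26.7 CPM with the GapmeR against 54.8 to 149 with the scrambled oligonucleotide, with no overlap in either experiment (log2 fold changes 2.07 and -2.27). The adjusted p of these changes was 1.67e-06 and 0.377 (edgeR). The knockdown value pools the sets, whose own values for LINC00881 were unequal and are given below. The spread between replicates, as the biological coefficient of variation, was 0.0792 with overexpression and 0.445 with knockdown, or 0.275 with the sets fitted. The cells carried cardiomyocyte markers throughout, at a summed 15711 to 35317 CPM over 11 genes, while the endothelial genes PECAM1, CDH5, VWF and TIE1 and the pluripotency genes POU5F1, NANOG and SOX2 stayed under 1 CPM in every library. The full lists were not at 0: the 7 endothelial markers summed to 43.5 to 242 CPM, mostly KDR (33.3 to 237 CPM), and the 6 pluripotency markers to 80.3 to 105.5 CPM, mostly TDGF1 (74.3 to 102 CPM).

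Levels of the glycolytic genes are compared here per kilobase of exon (GENCODE 29, GRCh38). GAPDH, the dehydrogenase of the pathway's middle step, was first in all groups, at 780 ± 80.2 CPM per kilobase with the control plasmid and 1357 ± 72.03 with the scrambled oligonucleotide (SD, n = 4 each). TPI1, the triose phosphate isomerase, followed at 266 ± 34.0 and 514 ± 21.2 CPM per kilobase (SD, n = 4 each). The isoforms of a family took unequal shares of the signal in several families, though LDHA and LDHB were near each other (56.2% and 43.8% with the control plasmid). HK1, the housekeeping hexokinase, made up 94.4% of the HK1 and HK2 signal per kilobase with the control plasmid and 97.1% with the scrambled oligonucleotide. HK2, the insulin-regulated hexokinase of adult muscle, made up the rest. PFKP, the platelet-type phosphofructokinase, held 69.2% and 63.5% of the phosphofructokinase signal, PFKM, the muscle type, 26.5% to 30.5% and 32.4% to 34.5% over the libraries, and PFKL, the liver type, 1.82% and 3.30%. Among the glucose transporters SLC2A3 (GLUT3) held 76.6% and 64.1%, SLC2A1 (GLUT1) 13.9% and 27.5%, and SLC2A4 (GLUT4), the insulin-responsive transporter of adult muscle, 9.43% and 8.41%.

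The enolase and PDK mixtures differed between the experiments, as did that of the aldolases, where the counts of ALDOA are uncertain. ENO3, the muscle enolase, held 28.5% of the enolase signal per kilobase with the control plasmid and 51.1% with the scrambled oligonucleotide, ENO1 69.1% and 47.3%. PDK1 held 69.96% to 74.3% of the PDK signal and 45.1% to 52.2% over the libraries, and PDK2 8.39% and 27.2%, while PDK4, the kinase induced by fasting and fatty acids, held 0.589% and 1.06%. The experiments were sequenced to different depths, and the mean mitochondrial share of counts was 6.11% for the control plasmid and 21.0% for the scrambled oligonucleotide. Experiment and control treatment cannot be told apart in these differences, which are a description.

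**Figure D1:**
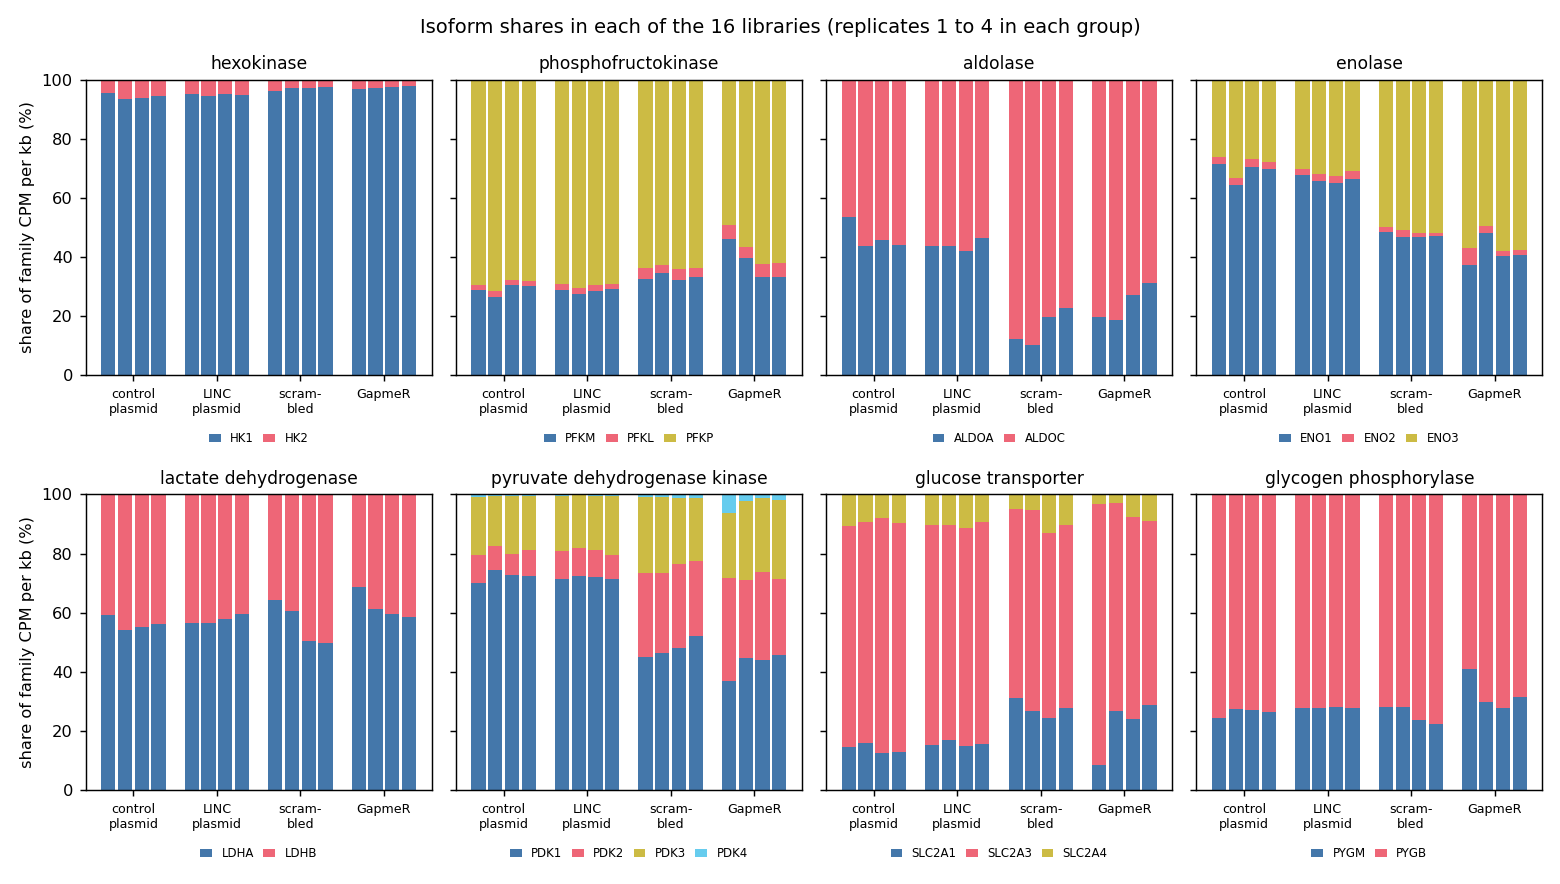
Share of each isoform in the CPM per kilobase of its family (y axis, percent) for each of the 16 libraries (bars; 4 replicates in each of the 4 groups). HK1 and PFKP hold most of their families in every group, except that PFKP holds 49.3% in replicate 1 of the GapmeR group, and the enolase and PDK mixtures differ more between the experiments than between treated and control libraries of an experiment.

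Some of the counts are uncertain because exons overlap those of other annotated genes, on the opposite strand, which counting without strand cannot separate, or on the same strand. PGAM2, the muscle phosphoglycerate mutase, had 0 counts in all 16 libraries. All of its exonic sequence lies within exons of DBNL on the opposite strand, and DBNL had 480 to 3578 counts, so nothing can be said about the expression of PGAM2. ALDOA, usually an abundant aldolase of muscle, stood at only 15.4 to 28.2 CPM. Of its exonic bases 53.5% are shared with other annotated genes, mostly AC093512.2 on the same strand, and reads there may not have been counted. The shared portion was 38.6% for PDK2, 33.4% for LDHB (with AC010197.2, on the same strand), 14.2% for GAPDH, 10.1% for ALDOC and 8.58% for PFKM, and at most 6.04% for the other members. SLC2A3 has a near-identical neighbor, SLC2A14, which had 3 to 50 counts against 1458 to 12013 for SLC2A3.

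With LINC00881 overexpression, 9 of the 35 genes rose and 0 fell at the study's cutoff taken as an unadjusted p under 0.05, by edgeR's quasi-likelihood test. Of all 14355 genes tested, 5.87% were called higher and 6.23% lower by this rule. The 9 comprised all the phosphofructokinase subunit genes (PFKM, PFKL, PFKP), PFKFB4, ALDOC, GAPDH, ENO3, and the glycogen genes PYGM and GYS1, with rises of 11.5% to 26.1%. None of the members had an adjusted p under 0.05 (edgeR, and none by DESeq2, which called 8 unadjusted), and over all genes the adjusted test called 0.00697%. The median log2 fold change of the members was 0.11 against 0.00 for all genes, and 28 of 35 were above 0. The members not called ran from -0.28 to 0.24.

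Phosphofructokinase carries the committed step of glycolysis. PFKM stood at 369, 362, 335 and 397 CPM in the control libraries and at 434, 403, 434 and 401 CPM with LINC00881 plasmid, without overlap (log2 fold change 0.19, standard error 0.07, adjusted p = 0.308, edgeR). PFKP stood at 583, 645, 492 and 594 CPM in the control libraries and at 688, 684, 701 and 629.7 CPM with LINC00881 plasmid, where 1 treated library fell below the highest control (0.22, standard error 0.08, adjusted p = 0.299). PFKL, at a far lower level, stood at 24.7, 34.4, 24.2 and 29.6 CPM against 34.7, 36.6, 40.1 and 31.6 CPM, also with 1 treated library under the highest control (0.33, standard error 0.11, adjusted p = 0.287). The rises were 14.3% for PFKM, 16.7% for PFKP and 26.1% for PFKL, which held 1.82% of the family signal with the control plasmid. The PFKP share was 69.2% ± 1.68 with the control plasmid and 69.6% ± 0.647 with LINC00881 plasmid (SD, n = 4 each), a difference within the spread. PFKFB4, which makes the allosteric activator of phosphofructokinase, stood at 9.68, 9.20, 7.23 and 9.58 CPM against 11.7, 9.54, 11.9 and 10.0 CPM (0.27, standard error 0.12, adjusted p = 0.396). Its groups overlapped in 1 library, DESeq2 did not call it, and the call was lost without control replicate 3 or LINC00881 plasmid replicate 1 or 3. The genes for its related bifunctional enzymes, PFKFB2 (-0.13) and PFKFB3 (0.06), did not pass.

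Further down the pathway the called genes overlapped between groups. ALDOC, a brain-type aldolase, stood at 17.5, 25.6, 16.3 and 23.4 CPM in the controls and at 26.9, 24.9, 28.3 and 22.2 CPM with LINC00881 plasmid (log2 fold change 0.29, standard error 0.12, adjusted p = 0.361). GAPDH stood at 2564, 2327, 1999 and 2414 CPM against 2783, 2546, 2735 and 2544 CPM (0.19, standard error 0.08, adjusted p = 0.344). ENO3 stood at 271, 347, 239 and 283 CPM against 329, 320.0, 353 and 309 CPM (0.20, standard error 0.09, adjusted p = 0.372). In each of these 3 genes control replicate 3 was the lowest of the 8 libraries, and without that replicate none of the 3 passed. They were also not called without LINC00881 plasmid replicate 1 or 3, ALDOC and ENO3 not without control replicate 1, and ENO3 not without control replicate 4. PKM, the pyruvate kinase of most tissues, stood at 1168, 1369, 1064 and 1238 CPM against 1406, 1320.1, 1377 and 1244 CPM and missed the cutoff (0.14, standard error 0.08, adjusted p = 0.451).

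The muscle-type glycogen genes were called, and the genes of the lactate step were not. PYGM, the muscle glycogen phosphorylase that releases glucose from glycogen, stood at 168, 188, 157 and 184 CPM in the controls and at 209.6, 199, 207 and 198 CPM with LINC00881 plasmid, without overlap (log2 fold change 0.22, standard error 0.07, adjusted p = 0.286). GYS1, the muscle glycogen synthase, stood at 133, 137, 119.6 and 138 CPM against 154, 144, 149 and 143 CPM, also without overlap but not called without control replicate 3 or LINC00881 plasmid replicate 1 or 3 (0.16, standard error 0.07, adjusted p = 0.361). PYGB, the brain phosphorylase, had a log2 fold change of 0.11 and did not pass. LDHA and LDHB, the subunits of the lactate dehydrogenase, and the lactate transporter gene SLC16A1 were among the 7 members with values below 0 (-0.10, -0.18 and -0.08), none past the cutoff. LDHB stood at 85.7, 116, 102 and 96.8 CPM against 97.0, 94.3, 84.2 and 79.1 CPM (adjusted p = 0.414), and LDHA at 258, 286, 264 and 259 CPM against 261, 254, 241 and 241 CPM. The groups overlapped in both genes.

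No change was called in the glucose sensors with overexpression. TXNIP stood at 278, 297, 289.9 and 272 CPM in the controls and at 290.0, 287, 284 and 279 CPM with LINC00881 plasmid (log2 fold change 0.01, standard error 0.06, adjusted p = 0.982). ARRDC4 stood at 107, 87.4, 107 and 99.5 CPM against 86.8, 97.0, 91.7 and 93.5 CPM (-0.12, standard error 0.07, adjusted p = 0.534). The control and treated libraries overlapped in both genes. HK2, at 32.1, 40.8, 36.1 and 37.2 CPM against 34.1, 37.9, 35.3 and 35.2 CPM, had a log2 fold change of -0.04 (adjusted p = 0.874). SLC2A1, at 22.0, 28.5, 20.0 and 20.7 CPM against 24.9, 28.8, 26.1 and 26.4 CPM, had one of 0.21 (adjusted p = 0.429). Over all 35 genes, 4 were higher without overlap between the groups (PFKM, PDK2, PYGM and GYS1) and 0 lower, where 3.8% and 3.45% of all genes tested were.

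**Figure D2:**
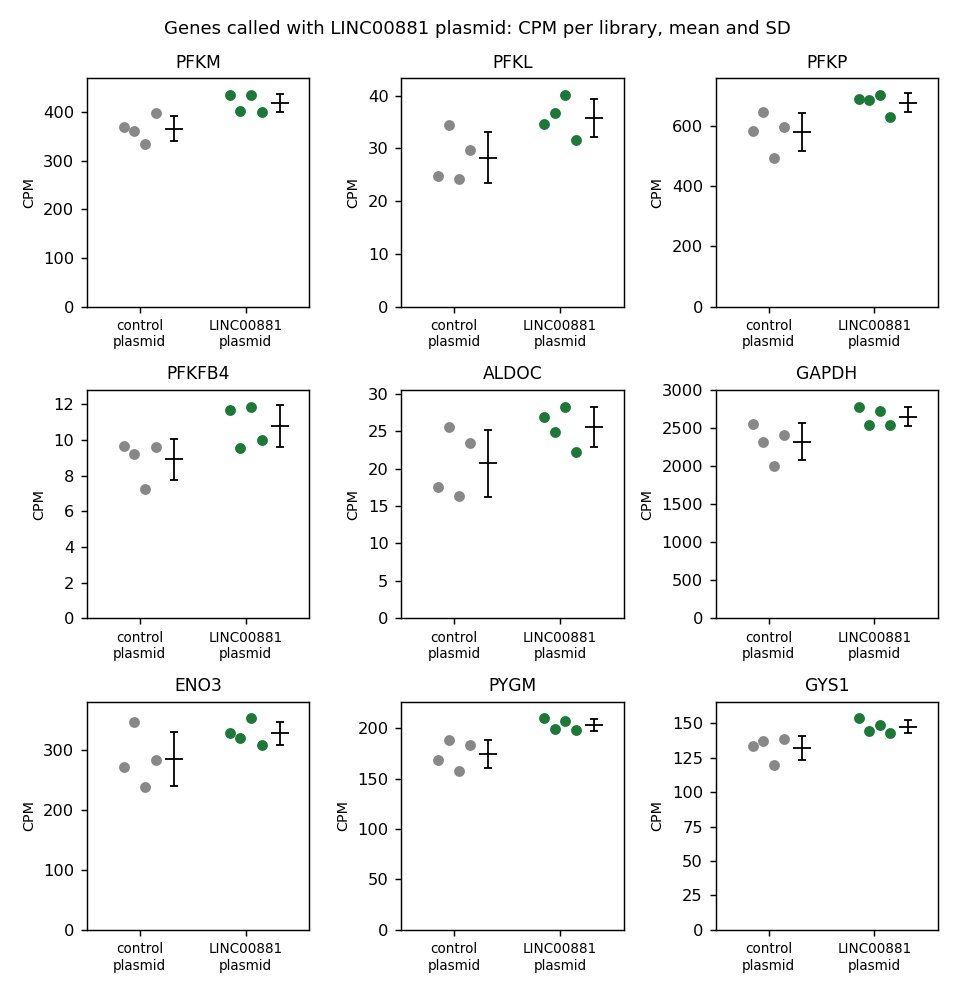
CPM (y axis, from 0) of the 9 genes called with LINC00881 overexpression in each control plasmid (gray) and LINC00881 plasmid (green) library, with the mean and SD of 4 libraries (black). The treated libraries lie higher on average in each panel, without overlap in PFKM, PYGM and GYS1.

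These rises moved together with the base composition of the genes and with other library measures. The exons of the members had a median GC content of 55.9% against 48.6% for all genes tested, and the log2 fold change with overexpression had a Spearman rho of 0.504 with GC content over 13587 genes and 0.743 over the 35 members, points that share the same 8 libraries. The quartile of all genes richest in GC had a median log2 fold change of 0.10, near the members' 0.11. With offsets for gene length and GC content, 6 members rose (PFKM, PFKP, ALDOC, GAPDH, PGK1 and PYGM), as did 696 of all 14355 genes. The median of the members was then 0.05. The number called ran from 4 to 15 as single libraries were left out: 4 (PFKM, PFKL, PFKP and PYGM each time) without control replicate 3, LINC00881 plasmid replicate 1 or LINC00881 plasmid replicate 3, and 15 without control replicate 2, 4 of them after adjustment. Of all 14355 genes, 501, 546 and 468 rose in the former fits and 1276 in the last, where 261 were called after adjustment. Cardiomyocyte markers were higher in summed level too (34695 ± 917 against 31227 ± 1124 counts scaled to the library total without TMM, SD, n = 4 each, exact permutation test, p = 0.0286, the smallest that 4 against 4 libraries allow, adjusted p = 0.0514 over 9 measures), with 4 of 11 called higher. The summed smooth muscle markers were higher at the same p on this scale (835 against 716, 3 of 7 called higher). So were the fibroblast markers (315 against 288, 1 of 7 tested genes called higher). The endothelial markers, mostly KDR, were higher too (234 against 206, 1 of 2 tested genes called higher). The mitochondrial share was lower (5.33% against 6.11%), with an exact permutation p = 0.0286 for each of these measures. In bulk RNA more cells of a type and more RNA per cell cannot be told apart, and the part of the markers in the glycolytic result was not tested.

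With LINC00881 knockdown, 6 of the 35 genes rose and 0 fell at the unadjusted cutoff in a fit without the sets. Of all 18127 genes tested, 4.2% were called higher and 4.15% lower. With a term for the set, 8 members rose and 5 fell, where 1196 and 1308 of all genes did, 0 of them after adjustment. The 6 of the pooled fit were TXNIP and ARRDC4, the fasting-induced kinase gene PDK4, the enolase genes ENO2 and ENO3, and PGAM1, the main phosphoglycerate mutase. None had an adjusted p under 0.05 by edgeR, where the adjusted test called 0% of all genes, and DESeq2 called 1 member, ARRDC4 (adjusted p = 0.0123). The median log2 fold change of the members was 0.05 against -0.01 for all genes, with 19 of 35 above 0, and the members not called ran from -0.60 (PFKFB4) to 0.76 (SLC2A3). Without overlap between the groups, 3 members were higher (ENO3, PDK4 and ARRDC4) and 1 lower (GPI, the glucose phosphate isomerase, -0.19, adjusted p = 0.613), where 3.08% and 3.37% of all genes were.

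**Figure D3:**
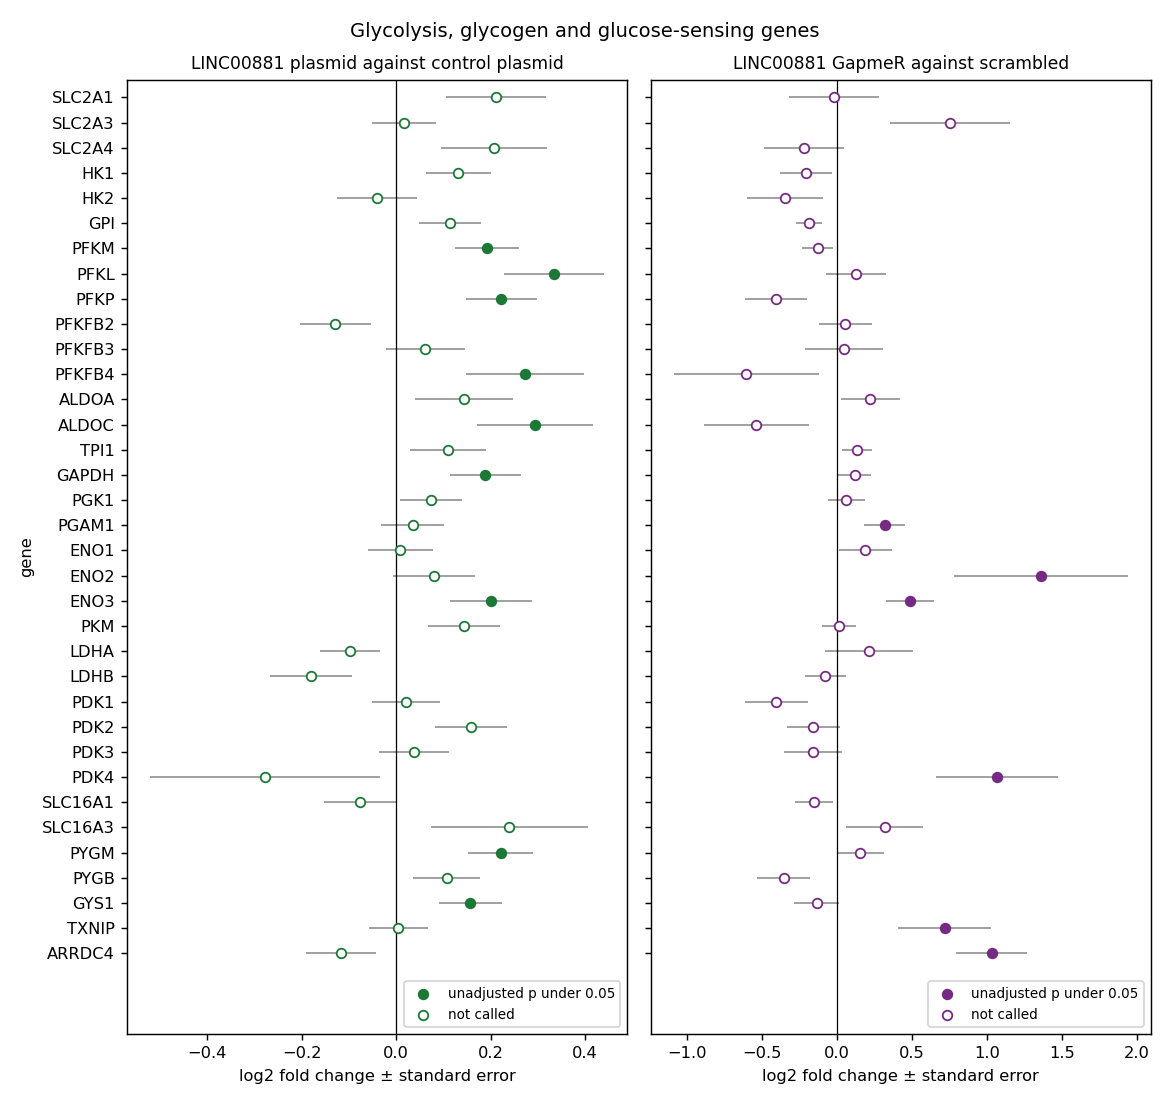
Log2 fold change (x axis, error bars show the standard error) of the 35 tested genes (y axis, in pathway order) with LINC00881 plasmid (left) and LINC00881 GapmeR (right), each against its own control. Filled points mark the 9 and 6 genes with an unadjusted p under 0.05, and the x axes differ in scale.

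TXNIP and ARRDC4, known to share carbohydrate-response elements for the glucose-sensing MondoA and ChREBP factors, rose together. MLXIPL, the gene of ChREBP, had 0 counts in every knockdown library, and MLXIP, the gene of MondoA, had 700 to 1338. The part of these factors in the rise was not tested. ARRDC4 stood at 57.1, 58.7, 33.1 and 44.4 CPM in scrambled replicates 1 to 4 and at 129, 111, 81.3 and 73.2 CPM in GapmeR replicates 1 to 4. Every GapmeR library was above every scrambled one, a 2.04-fold difference (log2 fold change 1.03, standard error 0.24, adjusted p = 0.377, edgeR), which passed the unadjusted cutoff with each library left out in turn. TXNIP stood at 156, 159, 81.8 and 83.02 CPM against 208, 297, 145 and 140.1 CPM. The pooled groups overlapped, with scrambled replicates 1 and 2 above GapmeR replicates 3 and 4, but within each set the GapmeR libraries were above the scrambled ones (0.72, standard error 0.31, adjusted p = 0.582). This pooled call was lost without scrambled replicate 3 or 4 or GapmeR replicate 1 or 2 (0.45 to 0.88 over all libraries left out), and with a term for the set TXNIP had a log2 fold change of 0.73 (adjusted p = 0.114).

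The sets gave like effects for both genes. In replicates 1 and 2 the log2 fold changes were 0.68 ± 0.16 for TXNIP (± standard error, adjusted p = 0.0367) and 1.05 ± 0.17 for ARRDC4 (adjusted p = 0.0121). In replicates 3 and 4 they were 0.79 ± 0.16 (adjusted p = 0.058) and 0.99 ± 0.17 (adjusted p = 0.0333). The difference between sets (replicates 3 and 4 minus replicates 1 and 2) was 0.12 for TXNIP (standard error 0.23, adjusted p = 0.817) and -0.06 for ARRDC4 (standard error 0.24, adjusted p = 0.913). ARRDC3, a related arrestin gene outside the member list, also rose (0.96, standard error 0.31, adjusted p = 0.479).

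The annotation places TXNIP on the minus strand of chromosome 1, positions 145992435 to 145996600 (GRCh38), and ARRDC4 on the plus strand of chromosome 15, positions 97960698 to 97973838, and neither shares exonic sequence with another annotated gene. Their promoter windows are shown (RefSeq, GRCh38.p14, 250 bases before to 50 after the annotated start, read 5′ to 3′ on the strand of the gene). In TXNIP, at chr1:145996530-145996829, capitals mark the match to a tandem motif of CACGNG, any 5 bases (NNNNN) and CACGNG again, a pair of E-box-like elements 5 bases apart as in carbohydrate-response elements, 88 to 72 bases before the start. In ARRDC4, at chr15:97960453-97960752, capitals mark an E-box, CACGTG, 210 to 205 bases before the start.
TXNIP: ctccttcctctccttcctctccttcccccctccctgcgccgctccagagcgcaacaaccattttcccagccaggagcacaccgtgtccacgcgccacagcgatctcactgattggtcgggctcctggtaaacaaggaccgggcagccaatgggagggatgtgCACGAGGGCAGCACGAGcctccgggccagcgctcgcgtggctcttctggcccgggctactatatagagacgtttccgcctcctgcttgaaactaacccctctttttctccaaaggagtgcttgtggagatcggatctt
ARRDC4: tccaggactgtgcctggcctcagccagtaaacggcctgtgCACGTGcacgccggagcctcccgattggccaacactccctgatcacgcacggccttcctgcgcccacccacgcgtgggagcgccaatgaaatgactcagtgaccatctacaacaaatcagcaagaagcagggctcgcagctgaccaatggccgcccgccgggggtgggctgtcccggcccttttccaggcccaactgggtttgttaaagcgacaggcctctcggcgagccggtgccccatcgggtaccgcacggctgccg

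The paired motif, searched on both strands, occurs in 20 of 35116 promoter windows of this length (0.057%), and among the members in that of TXNIP alone. CACGTG reads the same on both strands and is a special case of CACGNG. It occurs in 7.26% of all windows and in 8 of the members' 61 windows (13.1%). These are windows of 8 of the 31 members that have any: ALDOA, ALDOC, ARRDC4, GAPDH, HK2, LDHA, PDK2 and PFKFB3. Apart from ARRDC4, none of these 8 was among the 6 genes that rose with knockdown. A match in a window is a description of the sequence.

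**Figure D4:**
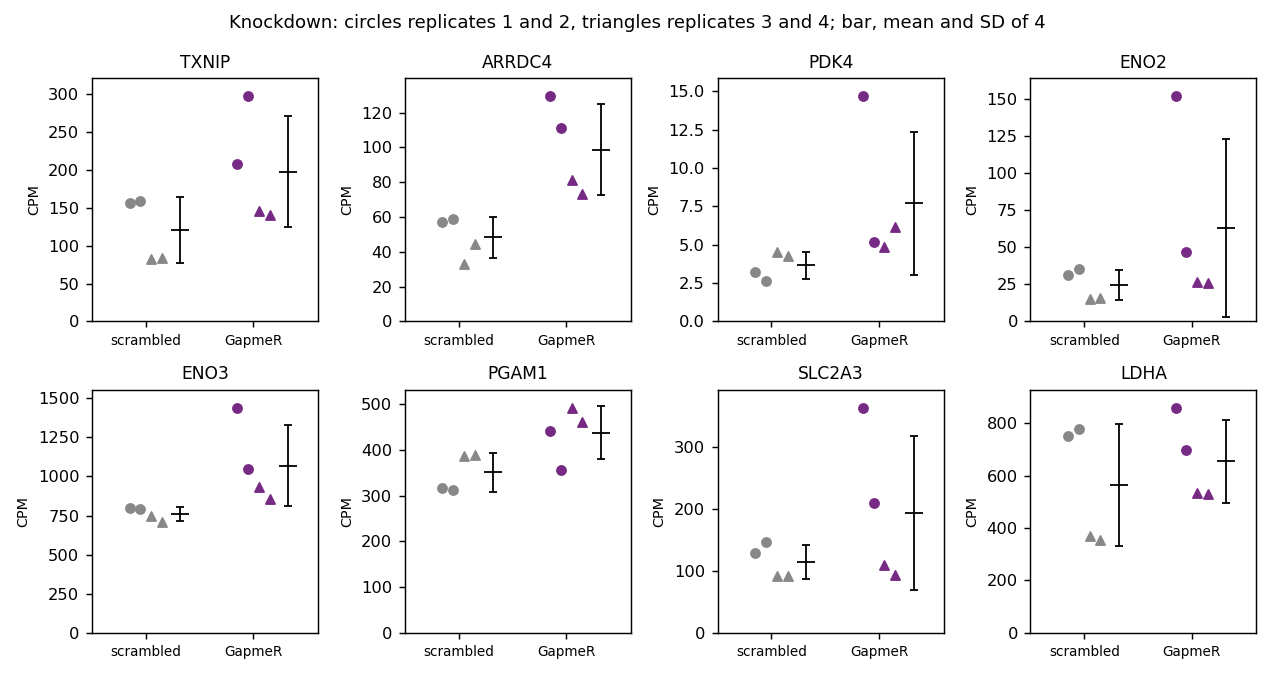
CPM (y axis, from 0) of 8 genes in the scrambled (gray) and GapmeR (purple) libraries, with replicates 1 and 2 as circles and replicates 3 and 4 as triangles, and the mean and SD of 4 libraries in black. In TXNIP and ARRDC4 the treated circles lie above the control circles and the treated triangles above the control triangles, and in PDK4 and ENO2 GapmeR replicate 1 lies far above the other libraries.

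The rises of the PDK and enolase genes were uneven among the GapmeR libraries. PDK4, which blocks pyruvate oxidation in mitochondria, stood at 3.25, 2.63, 4.53 and 4.27 CPM with the scrambled oligonucleotide. With the GapmeR it stood at 14.7, 5.17, 4.85 and 6.13 CPM. All 4 GapmeR libraries were higher than the scrambled ones, but replicate 1 was far above the rest (log2 fold change 1.07, standard error 0.41, adjusted p = 0.534), and without it the value was 0.55 and no longer called. The call was also lost without scrambled replicate 1 (1.01) or 2 (0.94). ENO2, the neuronal enolase, stood at 31.5, 35.1, 15.4 and 15.8 CPM against 152, 46.6, 26.7 and 26.02 CPM, higher within each set but overlapping when pooled (1.36, standard error 0.58, adjusted p = 0.572), and at 0.43 without GapmeR replicate 1. It was no longer called without scrambled replicate 1, 3 or 4 or GapmeR replicate 1 or 2.

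ENO3 and PGAM1 rose by less. ENO3, on chromosome 17, stood at 802, 795, 745 and 708 CPM with the scrambled oligonucleotide and at 1439.6, 1049, 934 and 857 CPM with the GapmeR, without overlap (log2 fold change 0.49, standard error 0.16, adjusted p = 0.479). It passed the unadjusted cutoff with each library left out. PGAM1 stood at 316, 313, 388 and 388 CPM against 442, 356, 493 and 461 CPM (0.32, standard error 0.13, adjusted p = 0.569), higher within each set and overlapping when pooled. It was no longer called without any one of 5 libraries, scrambled replicates 1 and 2 and GapmeR replicates 1, 3 and 4.

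Beside these, GAPDH, PKM, HK2, SLC2A1 and LDHB were not called in the pooled knockdown. GAPDH stood at 4309, 3841, 4127 and 3902 CPM with the scrambled oligonucleotide and at 5107, 4029.8, 4466 and 3949.8 CPM with the GapmeR (log2 fold change 0.12, adjusted p = 0.833). PKM stood at 708, 654, 702 and 637 CPM against 773, 585, 699 and 669 CPM (0.01, adjusted p = 0.986). HK2 stood at 26.1, 17.2, 18.00 and 15.1 CPM against 19.8, 10.7, 16.3 and 13.2 CPM (-0.35, adjusted p = 0.755). Treated and control libraries overlapped in all 3 genes. SLC2A1 stood at 48.5, 44.0, 27.1 and 31.5 CPM against 26.2, 60.8, 29.4 and 32.6 CPM (-0.02, adjusted p = 0.994), with GapmeR replicates 1 and 2 on opposite sides of their controls. LDHB stood at 202, 242, 176 and 174 CPM against 187, 212, 174 and 179 CPM (-0.08, adjusted p = 0.925), again with overlap.

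Of the 9 genes that rose with overexpression, ENO3 was also called in the pooled knockdown, in the same direction, and the other 8 were not called in that fit. PFKM stood at 407, 404, 374 and 381 CPM with the scrambled oligonucleotide and at 316, 376, 389 and 352 CPM with the GapmeR (-0.13). PFKL stood at 55.4, 40.5, 51.5 and 42.5 CPM against 39.2, 42.9, 66.2 and 58.8 CPM (0.12). ALDOC stood at 107, 102, 56.1 and 48.3 CPM against 85.1, 57.6, 40.7 and 32.7 CPM (-0.54), lower within each set but overlapping when pooled. The glycogen genes PYGM, at 216, 199, 239 and 217 CPM against 307, 180.3, 239 and 242 CPM, and GYS1, at 161, 141, 143 and 133 CPM against 145, 99.6, 151.1 and 130.4 CPM, overlapped between the groups (0.15 and -0.14). Of the genes called with knockdown but not with overexpression, ENO2 stood in the overexpression libraries at 22.2 to 26.2 CPM in the controls and at 24.9 to 26.02 CPM with LINC00881 plasmid (0.08), PGAM1 at 325 to 376 and 333 to 361 CPM (0.03), and PDK4 at 1.87 to 3.12 and 1.32 to 2.78 CPM (-0.28).

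LINC00881 fell from 126 and 149 to 11.3 and 26.7 CPM in replicates 1 and 2 (log2 fold change -2.85, adjusted p = 0.0061, edgeR). In replicates 3 and 4 it fell from 54.9 and 54.8 to 19.7 and 21.8 CPM (-1.40, adjusted p = 0.0888). The difference between sets was 1.45 (standard error 0.46, unadjusted p = 0.0128, adjusted p = 0.108). The part of this unequal depletion in the results of the sets was not tested. Within the sets more of the members moved. In replicates 1 and 2, 9 rose and 5 fell at the unadjusted cutoff, against 13.4% and 13.7% of all genes. In replicates 3 and 4, 4 rose and 4 fell, against 6.95% and 8.26%. After adjustment over all genes, 5 rose (SLC2A3, ENO1, ENO3, TXNIP and ARRDC4) and 3 fell (PFKP, PDK1 and PDK3) in replicates 1 and 2, against 4.55% and 5.09% of all genes, and in replicates 3 and 4 1 rose (ARRDC4) and 0 fell, against 0.612% and 0.767%. Each set holds 2 libraries of a kind, and its adjusted calls rest on the spread shared with the other set: with each set fitted alone no member passed in replicates 1 and 2, and 6 rose and 2 fell in replicates 3 and 4, where 0 of 17992 and 2050 of 19258 genes were called. As single libraries were left out, a fit in which the lone library is assumed to vary like the others, the adjusted calls in replicates 1 and 2 ran from 0 (without scrambled replicate 1 or 2) to 12 higher (without GapmeR replicate 2, with 4598 of all genes called) and 9 lower (without GapmeR replicate 1, with 3475). Without scrambled replicate 3 or 4 or GapmeR replicate 3 or 4 there was 1 in each direction. In replicates 3 and 4 there were 6 higher and 3 lower without GapmeR replicate 1 or 2, with 1768 and 1744 of all genes called, and 0 without any other library. Without overlap in both sets, 7 members were higher (SLC2A3, PGAM1, ENO2, ENO3, PDK4, TXNIP and ARRDC4) and 4 lower (GPI, ALDOC, PDK1 and PYGB), where 6.92% and 7.5% of all genes were. The log2 fold changes of these lower members follow for replicates 1 and 2 and for replicates 3 and 4, with adjusted p by edgeR. ALDOC had -0.55 and -0.51 (0.125 and 0.29), and PYGB -0.29 and -0.40 (0.135 and 0.127). PDK1 had -0.64 and -0.24 (0.0121 and 0.317), and GPI -0.21 and -0.16 (0.186 and 0.488).

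In replicates 1 and 2, after adjustment, SLC2A3, ENO1 and ENO3 rose and PFKP fell, beside the arrestin and PDK genes. SLC2A3, the high-affinity transporter GLUT3, stood at 129 and 147 CPM with the scrambled oligonucleotide and at 363 and 209 CPM with the GapmeR (log2 fold change 1.05, standard error 0.23, adjusted p = 0.0294), and in replicates 3 and 4 at 91.8 and 91.4 against 109.5 and 92.7 CPM (0.14, adjusted p = 0.843). ENO1, the ubiquitous enolase, stood at 958 and 899 CPM against 1156 and 1255 CPM (0.38, standard error 0.09, adjusted p = 0.0407), and in replicates 3 and 4 at 827 and 792 against 803 and 744 CPM (-0.07). ENO3 had a log2 fold change of 0.64 (adjusted p = 0.0302) in the former set and 0.30 (adjusted p = 0.363) in the latter. PFKP stood at 524 and 485 CPM against 223 and 353 CPM in replicates 1 and 2 (-0.81, standard error 0.19, adjusted p = 0.0354), with a share of the phosphofructokinase signal per kilobase of 63.1% and 52.9%, and at 488 and 479 against 482 and 434 CPM in replicates 3 and 4 (-0.08). 

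PDK1 and PDK3, isoforms of the kinase that inactivates pyruvate dehydrogenase, fell in replicates 1 and 2 while PDK4 was higher. PDK1, a target of hypoxia-inducible factor, stood at 480.3 and 476 CPM against 284 and 328 CPM (-0.64, standard error 0.10, adjusted p = 0.0121), and in replicates 3 and 4 at 583 and 631 against 514 and 514 CPM (-0.24, adjusted p = 0.317). PDK3 stood at 90.7 and 87.5 CPM against 55.9 and 65.1 CPM (-0.56, standard error 0.13, adjusted p = 0.0325), and in replicates 3 and 4 at 90.5 and 86.0 against 96.7 and 99.8 CPM (0.16, adjusted p = 0.649). PDK4 had a log2 fold change of 1.75 in replicates 1 and 2 (adjusted p = 0.0513) and 0.32 in replicates 3 and 4 (adjusted p = 0.82).

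LDHA and PFKFB4 showed their larger values in replicates 3 and 4. LDHA, the lactate-forming subunit, stood at 371 and 356 CPM with the scrambled oligonucleotide and at 532 and 528 CPM with the GapmeR (log2 fold change 0.55, standard error 0.11, adjusted p = 0.0598), and in replicates 1 and 2 at 752 and 777 against 858 and 696 CPM (0.02). PFKFB4 stood at 32.2 and 33.7 CPM against 16.4 and 10.4 CPM (-1.30, standard error 0.41, adjusted p = 0.176), and in replicates 1 and 2 at 10.8 and 8.67 against 8.40 and 21.0 CPM (0.60). The control libraries of these genes already differed between sets, in both genes by more than the GapmeR effect in replicates 3 and 4.

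The difference of the knockdown effect between sets had an adjusted p under 0.05 in 0 of the 35 members by edgeR, against 5.67% of all genes. At an unadjusted 0.05 there were 9 members, 6 higher and 3 lower, where 2044 and 2079 of the 18127 genes were. PDK3 came closest (0.71, standard error 0.18, adjusted p = 0.0556), and DESeq2 called 2 members, PDK3 and PFKFB4, among 2331 of all genes. With low counts kept, edgeR called 5 members, among 2775 of 39334 genes. Without GapmeR replicate 1 the number was 8, among 3193 of all genes, without GapmeR replicate 2 it was 11, among 3748, and it was 0 without any other library.

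**Figure D5:**
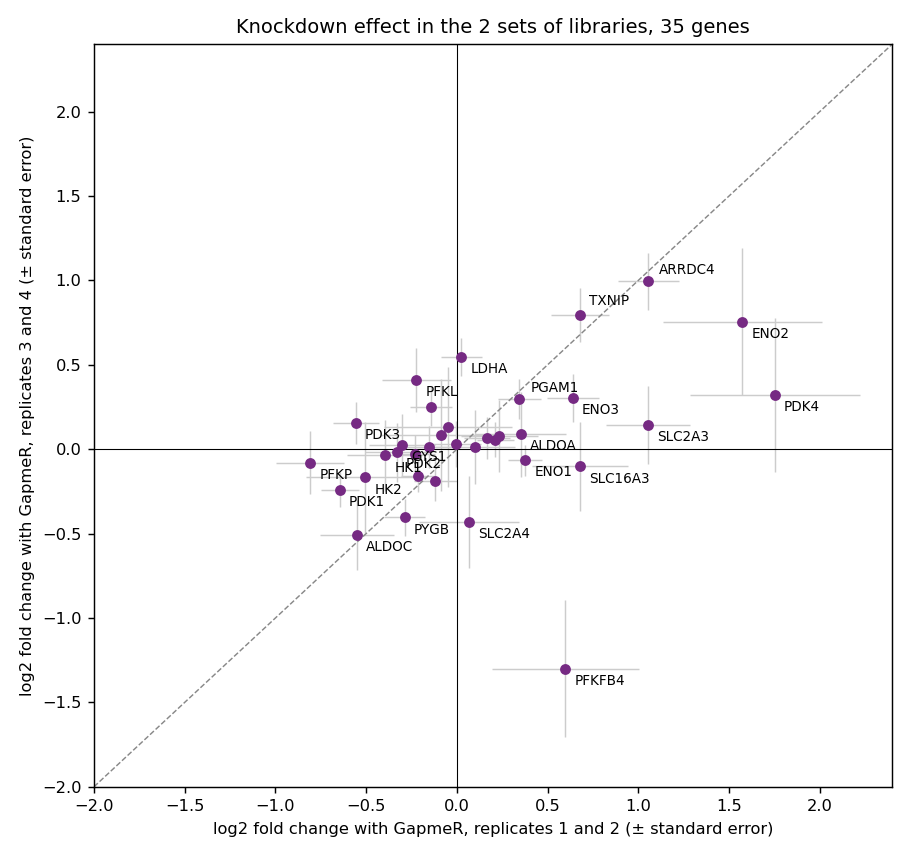
Log2 fold change with the GapmeR in replicates 1 and 2 (x axis) and in replicates 3 and 4 (y axis) for the 35 tested genes, with standard errors, and the line of equal effects (dashed). ARRDC4, TXNIP and PGAM1 lie near that line on the positive side, and SLC2A3, PDK4 and ENO1 lie below it.

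Marker genes of other cell types and states also differed with the knockdown. Cardiomyocyte markers were lower in summed level (18344 ± 2704 against 23374 ± 402 counts scaled to the library total without TMM, SD, n = 4 each, exact permutation test, p = 0.0286, the smallest that 4 against 4 allow, adjusted p = 0.129 over 9 measures), with 5 of 11 called lower, 8 in replicates 1 and 2 and 4 in replicates 3 and 4. With TMM scaling the sums were 18296 ± 2231 and 23476 ± 1494 CPM (SD, n = 4 each). Pluripotency markers were higher in every GapmeR library (a summed 96.9 ± 6.47 against 80.6 ± 5.03 on the library total, SD, n = 4 each, with p = 0.0286 by the same exact test and 0.129 after adjustment), with 0 of 4 tested genes called. Of 7 smooth muscle markers 3 fell in replicates 1 and 2 and 3 rose in replicates 3 and 4. All 6 proliferation markers rose in replicates 3 and 4 (log2 fold changes 0.71 to 2.08) and 0 in replicates 1 and 2, where 2 fell. Of the 9 tested of 10 hepatic and endodermal markers, which summed to 62.4 to 328 CPM in the 16 libraries, 6 fell in replicates 1 and 2 and 1 rose and 2 fell in replicates 3 and 4. The part of these markers in the glycolytic results was not tested.

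The other genes of the same pathways give the surroundings of these results, by the same unadjusted cutoff. By it 5.87% of all genes tested were called higher and 6.23% lower with overexpression, and 4.2% and 4.15% with knockdown. Of the glycogen genes outside the members, 22 were tested. With knockdown 1 rose (the synthase kinase gene GSK3A, 0.52) and 3 fell, among them PHKB (-0.61, standard error 0.12) and PHKA2 (-0.65, standard error 0.22), subunits of the phosphorylase kinase that activates glycogen phosphorylase. With overexpression 3 rose (GAA, the lysosomal glucosidase, 0.39, PHKA2, 0.20, and PPP1R3B, a glycogen-targeting phosphatase subunit, 0.14) and 1 fell (UGP2, which makes the glucose donor for glycogen, -0.17). PHKA2, named for its small p among the 22 tested genes, had opposite signs in the 2 experiments, each compared with its own control. Its call with overexpression was lost in 3 of 8 fits with other processing (0.12 to 0.21).

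Among 30 sensors of glucose, energy and oxygen tested with knockdown, 6 rose and 1 fell. ARRDC3, the oxygen-sensing ligase gene VHL (0.51), PRKAA1, a catalytic subunit of AMP-activated kinase (0.46), and MYC (1.21, standard error 0.48), which drives glycolytic genes in growing cells, were higher. HIF1A, which encodes the hypoxia-inducible subunit, was lower (-0.30, standard error 0.12). MYC had a log2 fold change of 2.07 in replicates 1 and 2 and -0.07 in replicates 3 and 4, with an adjusted p of 0.0589 for the difference. With overexpression 0 of 29 rose and 2 fell, IRS2 (-0.34) and MYC (-0.35).

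Of 21 tested genes of the hypoxia response, 0 rose and 5 fell with overexpression, where 5.87% and 6.23% of all genes did. Among them were EGLN3 (-0.22, standard error 0.07), INSIG2 (-0.22), MXI1 (-0.18) and PLOD2 (-0.16). INSIG2 and PLOD2 each lost the call in 3 of 8 fits with other processing, with values as small as -0.07 and -0.03. MXI1 lost it in 2 and EGLN3 in 1. The exons of the named genes held 36.1% (PLOD2) to 48.3% (EGLN3) GC. The quartile of all genes poorest in GC had a median log2 fold change of -0.10. The part of base composition in these falls was not tested. The list lies outside glycolysis except for the member PFKFB3, which was called in neither experiment. With knockdown 2 of 22 rose (ERO1A, 0.52, and ANKRD37, 0.98, whose exons overlap another gene) and 1 fell (KDM4B, -0.54), where 4.2% and 4.15% of all genes did. As each of 8 libraries was left out in turn, the call was lost in 5 fits for ERO1A, 6 for ANKRD37 and 2 for KDM4B. Among 17 genes of the side branches of glycolysis, 2 were called higher with knockdown. They were GFPT1, the entry enzyme of the hexosamine pathway (0.60, standard error 0.16), and PRPS2, which makes the ribose donor for nucleotides (0.99). PRPS2 had only 34 to 194 counts in these libraries and lost its call in 5 of 8 fits with a library left out. RPE, of the pentose phosphate pathway, was called lower with overexpression (-0.20), but not in 3 of 8 fits with other processing.

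The genes of pyruvate entry and oxidation and the remaining transporters and isoforms are set beside the shares of all genes called. Those were 5.87% higher and 6.23% lower with overexpression, and 4.2% and 4.15% with knockdown. Of 11 genes for pyruvate entry to mitochondria and oxidation there, 0 were called with knockdown. With overexpression 1 was called (PDPR, a regulator of the pyruvate dehydrogenase phosphatase, 0.16). Of the other transporters, SLC16A7, a monocarboxylate transporter (-1.04, standard error 0.31), and SLC5A1, a sodium-coupled glucose transporter (-0.58), fell with knockdown out of 12. With overexpression BSG, the chaperone of the lactate transporters, rose (0.19) and SLC2A13 fell (-0.36) out of 10. Of the other glycolytic and gluconeogenic isoforms BPGM, which makes bisphosphoglycerate, rose with knockdown (0.36, 1 of 15) and PCK2, the mitochondrial PEP carboxykinase, with overexpression (0.28, 1 of 12).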

How the data were processed

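RNA-Seq was performed on 16 libraries of WTC-11 hiPSC-CMs (stranded total RNA kit, 1000 ng input, 11 cycles, paired 151-base reads). The authors used STAR 2.7.3a for alignment and deposited raw counts per gene symbol, not normalized. The table is named as featureCounts output counted without strand, so reads in exons that overlap on opposite strands cannot be assigned to a strand. All columns belong to the study's libraries.

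Counts were tested here with edgeR 4.0.16 (R 4.3.3), by the 2-sided quasi-likelihood F-test (TMM, filterByExpr, robust fit), each treated group of 4 against its own control, on 14355 and 18127 genes. Sets of knockdown libraries were fitted in a treatment-by-set model. Genes were called at an unadjusted p under 0.05, the study's cutoff, with Benjamini-Hochberg adjusted values over all genes beside it. Exact permutation tests over the libraries, 2-sided, compared marker sums and other library measures. Alternatives were DESeq2 1.42.0, its size factors, other count filters, each library left out, the replicate number as a block, a set term, each set alone, all 16 libraries in 1 fit, and offsets on gene length and GC content (splines, 5 degrees of freedom). The fitting code was tested on simulated data. GC content, exon lengths and overlaps came from GENCODE 29 (40160 of 59385 symbols matched).

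The member genes and all lists were chosen with earlier results of these data known. Members were described library by library if called in a pooled comparison or, after adjustment, in a set, as were TXNIP, ARRDC4, GAPDH, LDHA, LDHB, PKM, HK2 and SLC2A1 whatever their values. Of each other list up to 4 genes with the smallest p per experiment were named, except for 1 that is not reported here. MYC, named by this rule with overexpression, is also given with knockdown, which was chosen after its values were seen. The counts of MLXIPL and MLXIP are also given outside this rule.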

Additional observations from a re-analysis of the deposited data

Results flagged for a closer look

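In 4 of the 140 groups of 4 libraries examined for the 35 expressed genes, 1 library stood apart from the other 3 by more than Dixon's 95% critical value, where chance gives about 5% of groups. PDK4 stood at 14.7 CPM in GapmeR replicate 1, against 4.85 to 6.13 in the other GapmeR libraries. ENO2 stood at 152 CPM in the same library, against 26.02 to 46.6. PGK1, the phosphoglycerate kinase, stood at 466 CPM in scrambled replicate 4, against 512 to 520.4 in the other scrambled libraries. SLC16A3, the lactate exporter MCT4, stood at 7.24 CPM in the same library, against 5.74 to 5.84.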

How the results depend on the processing

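Counts of called genes and the calls of single genes depended on the processing. Of 1128 values of named genes under alternatives, 865 kept direction and side of the cutoff, 235 no longer passed, 15 newly passed and 13 changed sign. With overexpression 9 rose and 0 fell, where 843 and 894 of 14355 genes did. With all genes of at least 1 count kept, 14 rose and 1 fell, where 1314 and 1071 of 32465 genes did. In a fit of all 16 libraries 1 rose, with 94 of 17782 genes, and after adjustment 0 did. With DESeq2 size factors, with the replicate block, and with the offsets and block together 1 fell, with 940, 944 and 731 of 14355 genes. With knockdown 6 rose and 0 fell, where 761 and 753 of 18127 genes did, and 0 rose after adjustment. With the replicate block 3 fell and with a set term 5, where 1019 and 1308 genes did. With offsets for gene length and GC content 1 fell, and with offsets and block 3, where 707 and 912 genes did. In the fit of all 16 libraries 4 fell, with 1633 of 17782 genes. In replicates 1 and 2, 9 rose and 5 fell, where 2429 and 2482 of 18127 genes did. After adjustment 5 rose and 3 fell, where 825 and 922 genes did. With low counts kept 9 fell, with 3619 of 39334 genes. With the replicate block 10 fell, with 2516 of 18127 genes, and with the set fitted alone 3, with 1675 of 17992. In replicates 3 and 4, 4 rose and 4 fell, where 1259 and 1498 of 18127 genes did. After adjustment 1 rose and 0 fell, where 111 and 139 genes did. With low counts kept 8 rose, with 2027 of 39334 genes, and with the set alone 8, with 2424 of 19258. The difference between sets (0 members after adjustment) was called in 2 by DESeq2, with 2331 of 18127 genes. With low counts kept it was called in 5, with 2775 of 39334 genes.

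As single libraries were left out with overexpression, 4 to 15 members rose and 0 to 2 fell, where 468 to 1276 and 542 to 1330 of 14355 genes did. With knockdown 2 to 6 rose and 0 to 3 fell, where 535 to 834 and 592 to 834 of 18127 genes did. Small log2 fold changes turned sign in these fits, none of them called. HK2 with overexpression ran from -0.10 to 0.0154 (above 0 without control plasmid replicate 2). TXNIP with overexpression ran from -0.0225 to 0.0246 (below 0 without control plasmid replicates 1 and 4 and LINC00881 plasmid replicate 1). SLC2A1 with knockdown ran from -0.36 to 0.12 (positive without scrambled replicates 1 and 2 or GapmeR replicates 1, 3 and 4). PKM with knockdown ran from -0.0578 to 0.0786 (below 0 without scrambled replicate 2 or 4 or GapmeR replicate 1), and LDHB with knockdown from -0.14 to 0.0283 (above 0 without scrambled replicate 2). With TMM-scaled CPM the mitochondrial share differed with knockdown by -0.0389 percentage points in place of 0.0845, and the overexpression differences of the endothelial (26.1 CPM) and smooth muscle markers (111.5 CPM) had an exact permutation p = 0.0571. The causes were not tested.

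Treated and control libraries share replicate numbers, and same-numbered libraries correlated at -0.0918 to 0.1329 with overexpression and 0.0795 to 0.1677 with knockdown in their deviations from the group means. Not every library correlated best with its own number. In the knockdown, libraries of the same set correlated at 0.0793 to 0.1677 and those of different sets at -0.1750 to -0.0618, so there a number carries the set. In neither experiment do these correlations show a pairing of single libraries, and they cannot exclude one. With the replicate block 11 members rose and 1 fell with overexpression, where 976 and 944 of 14355 genes did. With knockdown 5 rose and 3 fell, where 871 and 1019 of 18127 genes did. Each group held only 4 libraries, and genes with a wide spread were among those called (ENO2 with knockdown, standard error 0.58). PGAM2 could not be measured.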
